A study of Mus musculus with 9 samples.

Results

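Inha, Inhba, Inhbb, Fst and Fstl3 encode the subunits of inhibin and activin and the secreted proteins that bind activin. These 5 genes, of 21887 protein-coding genes, were chosen by the peaks of the glucocorticoid receptor (GR) near them in these data, that is by which libraries called a peak and with what fold enrichment. GR is a transcription factor switched on by corticosterone, the main glucocorticoid of mice. It was mapped by chromatin immunoprecipitation and sequencing (ChIP-seq) in ovarian granulosa cells, the somatic cells around the oocyte. All cells came from wildtype CBA x C57BL/6 F1 mice, 21 days old, injected with 5 IU of equine chorionic gonadotropin (eCG), which acts like follicle-stimulating hormone (FSH). Mice of the 0 h group were killed 44 h after eCG. At that time mice of the 6 h group were given human chorionic gonadotropin (hCG, 5 IU), a ligand of the luteinising hormone (LH) receptor, and they were killed after 6 more hours. Each group has 2 GR libraries, and 1 further library at 0 h mapped H3K27ac, the histone acetylation found at promoters and enhancers in use. Every group had received eCG, and no GR library came from mice kept 6 h longer without hCG, so hCG and the later time cannot be told apart. The labels do not say whether replicates came from separate mice. The other 4 of the 9 samples were not analysed here.

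Inhibins and activins share their β subunits. The α subunit (Inha) paired with βA (Inhba) or βB (Inhbb) gives inhibin, which lowers FSH release from the pituitary, whereas β subunits paired with each other give activins, which raise it and act within the follicle through SMAD2 and SMAD3. Follistatin (Fst) and follistatin-like 3 (Fstl3) bind activins and block them. Granulosa cells of growing follicles are the main ovarian source of inhibin, and in the rat the mRNAs of its subunits are known to fall after the LH surge.

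Sequence next to an annotated start site was at hand for 4 of the 5 genes, 1 entry each, from the RefSeq promoter table of build GRCm38.p6, whose chromosome coordinates are those of mm10. The 250 bases before each start site are shown because GR peaks lie on or beside them in 3 genes and on none of them in the fourth. Inhbb (chr1:119422249-119422498, minus strand) lies wholly inside a locus called only at 0 h, and its capitals mark the 17 bases from the summit in the first 0 h library, 74 bp before the start site, to that in the second, 58 bp before it. In Inha (chr1:75507359-75507608, plus strand) the entry belongs to a start site 532 bp inside the gene span, and the capitals mark the 133 bases inside a locus called in all 4 libraries. Inhba (chr13:16011601-16011850, plus strand) has no capitals, since its locus begins 33 bp after the start site at 16011851, itself 7595 bp inside the gene span. Fstl3 (chr10:79777024-79777273, plus strand) overlaps no GR peak, and its capitals mark the letters TGTTCT.
Inhbb: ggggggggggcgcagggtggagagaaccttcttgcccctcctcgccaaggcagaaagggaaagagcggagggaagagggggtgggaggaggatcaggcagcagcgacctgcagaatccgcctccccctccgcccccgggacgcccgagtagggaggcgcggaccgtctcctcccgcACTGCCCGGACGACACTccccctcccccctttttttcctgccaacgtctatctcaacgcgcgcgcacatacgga
Inha: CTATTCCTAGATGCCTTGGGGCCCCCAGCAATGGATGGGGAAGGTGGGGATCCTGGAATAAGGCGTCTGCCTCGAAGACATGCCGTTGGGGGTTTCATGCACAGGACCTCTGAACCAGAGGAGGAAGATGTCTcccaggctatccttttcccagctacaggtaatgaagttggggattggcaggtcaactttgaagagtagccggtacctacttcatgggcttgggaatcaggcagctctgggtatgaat
Inhba: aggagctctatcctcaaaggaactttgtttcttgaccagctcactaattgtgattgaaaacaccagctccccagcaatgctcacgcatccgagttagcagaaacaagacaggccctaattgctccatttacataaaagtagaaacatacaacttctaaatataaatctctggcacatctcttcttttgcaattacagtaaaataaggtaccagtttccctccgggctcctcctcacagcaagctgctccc
Fstl3: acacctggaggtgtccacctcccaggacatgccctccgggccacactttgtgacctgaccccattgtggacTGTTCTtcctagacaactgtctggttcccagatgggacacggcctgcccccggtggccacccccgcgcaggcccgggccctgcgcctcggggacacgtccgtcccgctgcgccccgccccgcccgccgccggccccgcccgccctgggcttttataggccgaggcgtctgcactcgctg

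The windows of 300 bases around these start sites, 250 before and 50 after, were searched on both strands for 6 motifs. Those of Inha and Inhba lie wholly inside the gene span, so the sequence before the outer start of these genes was not searched. The GR palindrome (AGAACA and TGTTCT parted by any 3 bases) was in none of the 4 and in 0.00913% of the 32851 promoters of the table. Its hexamer TGTTCT was found in Fstl3, 179 bp before the start site, and in Inhbb on the opposite strand as AGAACA, 34 bp into the transcribed side, just past the letters shown. That hexamer stands in 19.0% of all promoters and is contained in the palindrome. The 4 windows held no cyclic AMP response element TGACGTCA (1.79% of promoters), none of its core TGACG (20.8%), which that element contains, no site CAAGGTCA of the NR5A receptors (1.56%) and no AP-1 site TGANTCA (7.81%). The bases before the start site were 68.0% G or C in Inhbb, 71.2% in Fstl3, 53.6% in Inha and 43.2% in Inhba.

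The authors deposited 1 peak list per library, and each peak has a fold enrichment over the background that the peak caller estimated. The GR lists held 9728 to 14748 peaks with a median fold of 6.89 to 7.89. The sources used here give no read depth, and a missing call shows only that no peak passed the authors' limit in that library. Overlapping peaks (1 bp was enough) from different libraries were joined, which gave 18584 loci. A locus is called only at 0 h where both 0 h libraries and neither 6 h library have a peak, and only at 6 h in the reverse case. All 7 granulosa cell markers looked up, among them Foxl2, Fshr and Cyp19a1, had an H3K27ac peak over the gene. So did 2 of 4 theca markers (Cyp17a1 and Ptch1), 2 of 4 endothelial markers (Pecam1 and Cdh5), 1 of 5 leukocyte markers (Itgam) and 1 of 5 oocyte markers (Gdf9). The part of other cell types in the results was not tested.

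Within the 5 gene spans and 50 kb to each side, GR peaks formed 45 loci. They were mostly loci of the 0 h libraries. Of the 45, 16 (35.6%) were called only at 0 h, where 4.15% of all loci were. Only 1 (2.22%) was called only at 6 h, against 15.1% of all loci, and 4 (8.89%) were called in all 4 libraries, against 27%. Because the genes were chosen with these calls known, the shares are a description and no test was made. With only the stronger 50% of each list, 2 of the 16 were still called only at 0 h, 1 in the Inha window and 1 in that of Fst, and none of the Inhba or Inhbb loci was. Another 2 joined them, 1 each at Inha and Inhba, because their 6 h peak was in the weaker 50%. Without the first 0 h library the class held 25 loci. In bulk cells, fewer cells with a bound site and less binding per cell cannot be told apart.

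Counted by library, the first and second 0 h libraries called 31 and 35 of the 45 loci, and the first and second 6 h libraries called 17 and 6. The same libraries called 52.6%, 50.4%, 77.8% and 54.4% of all loci. Both 0 h libraries thus called more of the 45 loci than either 6 h library. A looser split gave 28 loci (62.2%) with a peak in at least 1 library at 0 h and none at 6 h, against 13.8% of all loci. It gave 4 loci (8.89%) with a peak at 6 h and none at 0 h, against 38.3% of all loci. The remaining 13 had peaks at both times. Among them were 5 that only the second 6 h library lacked.

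**Figure D1:**
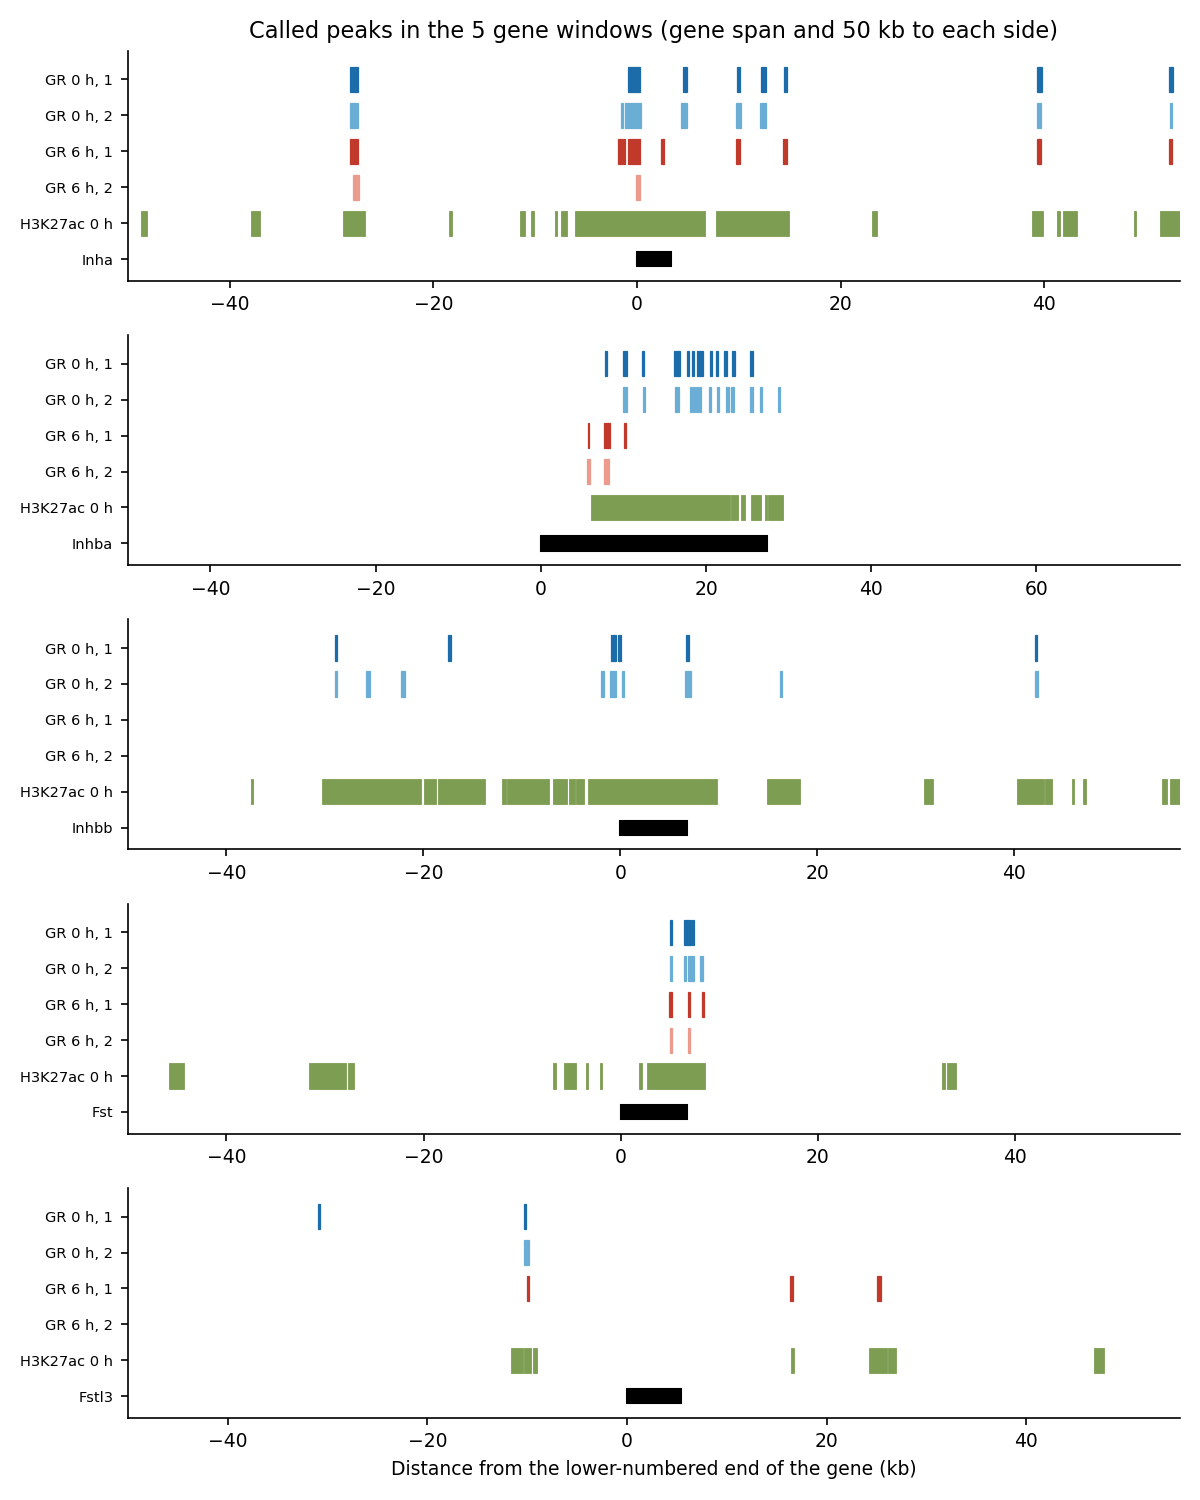
Peaks of the 4 GR libraries (blue 0 h, red 6 h) and of H3K27ac at 0 h (green) in the 5 gene windows, by distance in kb from the lower-numbered end of each gene, whose span is the black bar. The Inhbb window has no red mark, Inhba has its red marks at the left of the gene and its blue marks across it, and no GR mark lies on Fstl3.

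Inhba, the gene of the βA subunit (chromosome 13, 16004256 to 16031609), held 16 loci, of which 9 were called only at 0 h. No other protein-coding gene had as many within its window, the next having 7. This ranking used the unmerged loci and was not redone with peaks within 500 bp merged. No other protein-coding gene reaches into the 50 kb around Inhba. The first and second 0 h libraries had 12 and 14 peaks there, and the first and second 6 h libraries had 3 and 2. The length inside GR peaks was 4483 and 4270 bp in the 0 h libraries, against 1167 and 880 bp in the 6 h libraries. The 2 times did not overlap in either measure, and the share of all genes with such a gap was not computed.

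The 6 h peaks of Inhba lay in a short stretch around and after the start site, while 0 h peaks lay in that stretch and across the rest of the gene. The 9 loci called only at 0 h ran from 12.2 to 25.7 kb from the lower-numbered end of the gene span, or from 4.60 to 18.1 kb after the annotated start site. All peaks of the 6 h libraries lay between 5.64 and 10.3 kb from that end. The 1 locus only at 6 h (chr13:16009898-16010166) was 1685 bp before the start site, with folds of 5.36 and 6.33 in the first and second 6 h libraries. It was the only one of the 16 Inhba loci outside an H3K27ac peak of 0 h. The locus at the start site (chr13:16011884-16012582) had a fold of 4.89 in the first 0 h library, no peak in the second, and folds of 7.75 and 4.39 in the 6 h libraries. The next locus (chr13:16014161-16014657) had folds of 8.08 and 11.3 at 0 h, the highest of the gene in both 0 h libraries, 6.51 in the first 6 h library and no peak in the second. The loci only at 0 h began beyond it.

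**Figure D2:**
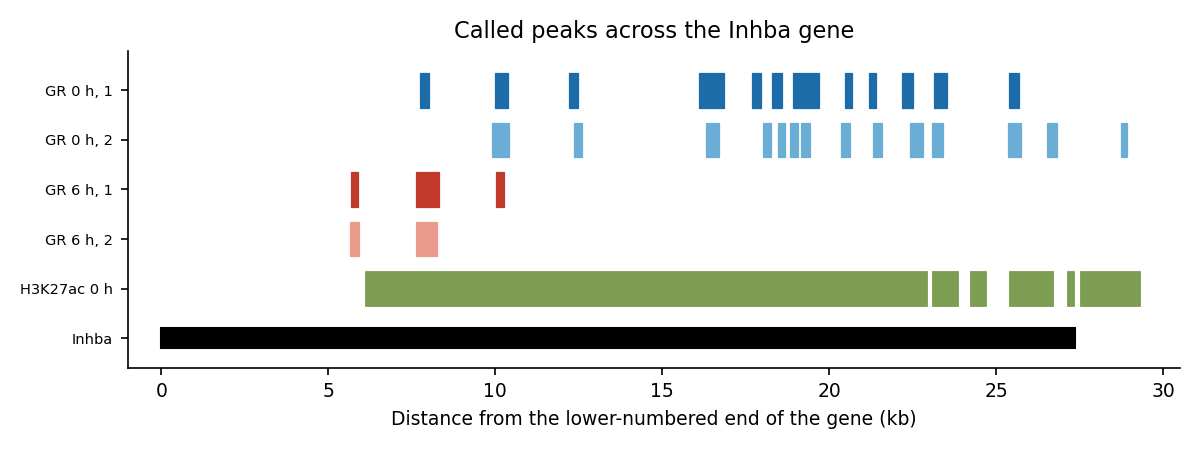
Peaks across Inhba by library, with distance in kb from the lower-numbered end of the gene span (black bar) on the horizontal axis and H3K27ac at 0 h in green. The 6 h peaks end at 10.3 kb, and the loci called only at 0 h lie from 12.2 to 25.7 kb.

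The 9 loci only at 0 h in Inhba were 325 to 865 bp wide and of modest enrichment. The strongest by the second 0 h library (chr13:16029621-16029987) had folds of 5.61 and 10.5, and that by the first (chr13:16027336-16027777) had folds of 7.78 and 9.40. The first of these was thus strong in 1 of the 2 libraries only, where it stood in the top 29.3% of the list by p-value, against 96.1% in the other. The weakest by the second library (chr13:16025450-16025851) had folds of 6.65 and 4.85. Several loci are close neighbours. A run of 4 loci from 16021932 to 16023941 has gaps of 53, 37 and 142 bp, and its first member was called in the first 0 h library only and its second in the second only. Another pair (16026429 to 16027081 and 16027336 to 16027777) is 254 bp apart. With peaks within 500 bp merged, the window held 12 loci in place of 16, and 7 in place of 9 were only at 0 h.

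Inhbb, the gene of the βB subunit (chromosome 1, 119415463 to 119422248), held 11 loci, and none had a peak in either 6 h library. The 0 h libraries had 6 and 9 peaks over 1900 and 3338 bp. Of the 11 loci, 4 were called in both 0 h libraries, 2 in the first only and 5 in the second only. This number of loci only at 0 h was reached or passed by 5 other protein-coding genes, Inhba among them. The locus over the start site (chr1:119421988-119422612), whose sequence is given above, had folds of 6.68 and 8.90. A second locus lay 418 bp below the other end of the gene (chr1:119414373-119415044), with folds of 7.25 and 6.07. Loci called in 1 library each followed it at gaps of 179 and 114 bp. The third, 28734 bp from the gene (chr1:119386487-119386728), had folds of 5.01 and 8.24. The fourth (chr1:119457546-119457864, folds 6.10 and 4.70) was nearer to Ralb, the gene of a small GTPase, than to Inhbb.

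Inha, the gene of the α subunit (chromosome 1, 75507077 to 75510366), held 10 loci, and here the 2 libraries of 6 h differed from each other. The first and second 0 h libraries had 8 and 8 peaks over 4172 and 4795 bp, the first 6 h library had 9 over 4407 bp, and the second had 2 over 1147 bp. The first 6 h library thus had about as many peaks here as the 0 h libraries. Its whole list was longer, with 14746 peaks kept against 10116 and 9726 at 0 h. The second 6 h library, with 10588 kept, had fewer peaks here. Only 3 of the 10 loci had Inha as their nearest gene, or tied with Obsl1, and the window also reaches 6 other protein-coding genes. The other 7 lay nearest to Obsl1, Stk11ip and Slc4a3, or overlapped both Chpf and Tmem198.

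The locus over the start of Inha (chr1:75505938-75507491) was called in all 4 libraries. Its folds were 10.1 and 17.7 at 0 h and 4.59 and 5.79 at 6 h. The peak of the second 0 h library was the strongest of the 5 windows and stood at rank 135 of its list, in the top 1.39%. That of the first 0 h library stood in the top 12.0%, and those of the 6 h libraries at 85.0% and 48.1% of theirs. Fold enrichments and ranks come from lists made separately, so no test was made between times. In 3 libraries the summit lay 412 to 499 bp before the start site of the table, and in the first 6 h library 1124 bp before it. That start site is inside the gene span, which begins at 75507077. The summits of the 3 libraries, at 75507110 to 75507197, were thus just inside the gene span, and that of the first 6 h library, at 75506485, was outside it. A neighbouring locus, called in the second 0 h and the first 6 h library, lies only 38 bp from the locus over the start. This neighbour had folds of 4.15 in the second 0 h library and 6.89 in the first 6 h library, the latter above the 4.59 given above. With peaks within 500 bp merged, the neighbour and the locus over the start were joined.

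Beyond the other end of Inha, a locus 995 bp from the gene (chr1:75511362-75511977) was called only at 0 h, with folds of 5.75 and 10.6. A further locus only at 0 h (chr1:75519163-75519770, folds 8.35 and 11.6) was 8796 bp from Inha and nearer to Stk11ip. Within the gene, 1 locus (chr1:75509401-75509725) was called in the first 6 h library alone, with a fold of 6.41. The Inha window therefore had peaks of both times within a few kb of each other.

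Fst, the gene of follistatin (chromosome 13, 114452262 to 114458989), held 4 loci, all at its higher-numbered end, and Fst was the nearest gene of each. The 0 h libraries had 4 and 4 peaks over 1029 and 1445 bp, and the 6 h libraries 3 and 2 over 849 and 486 bp. Of the 4 loci, 2 were called in all 4 libraries. The one 54 bp outside the gene (chr13:114459044-114459703) had folds of 10.4 and 9.03 at 0 h and 8.37 and 8.31 at 6 h. The one inside the gene (chr13:114457152-114457506) had folds of 4.88 and 6.69 at 0 h and 8.33 and 5.42 at 6 h, and here the 2 times overlapped.

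The locus called only at 0 h in Fst (chr13:114458702-114458947) had folds of 10.7 and 9.46 and lay just 96 bp from the shared locus outside the gene. With peaks within 500 bp merged, these were 1 locus, called in all 4 libraries, and Fst had no locus only at 0 h. The 0 h summits in that locus lay at 114458812 and 114458810. The 6 h summits lay at 114459220 and 114459203 in the neighbour, beside 0 h summits at 114459208 and 114459214. Each 0 h library thus had a peak on both sites and each 6 h library on the outer site only.

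Fstl3, the gene of the other activin-binding protein (chromosome 10, 79777274 to 79782630), had no GR locus of its own. The 4 loci in its window lay 9774 to 30730 bp away, within Polrmt, Rnf126, Palm or both Palm and Prss57. The 0 h libraries had 2 and 1 peaks over 449 and 476 bp, the first 6 h library had 3 over 953 bp and the second had none. Of the 4 loci, 2 had a peak in the first 6 h library and in no 0 h library (chr10:79793610-79793891 and chr10:79802308-79802709, folds 6.56 and 5.63). Without the second 6 h library these 2 counted as called only at 6 h and 1 other as called in all libraries. With all libraries no locus fell in those classes or was called only at 0 h. The strongest by fold in the first 6 h library (chr10:79766922-79767499), inside Rnf126, had folds of 6.46 and 5.66 at 0 h and 6.58 in that library. No H3K27ac peak overlapped Fstl3, the only member without one, and its window reaches 7 other protein-coding genes.

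**Figure D3:**
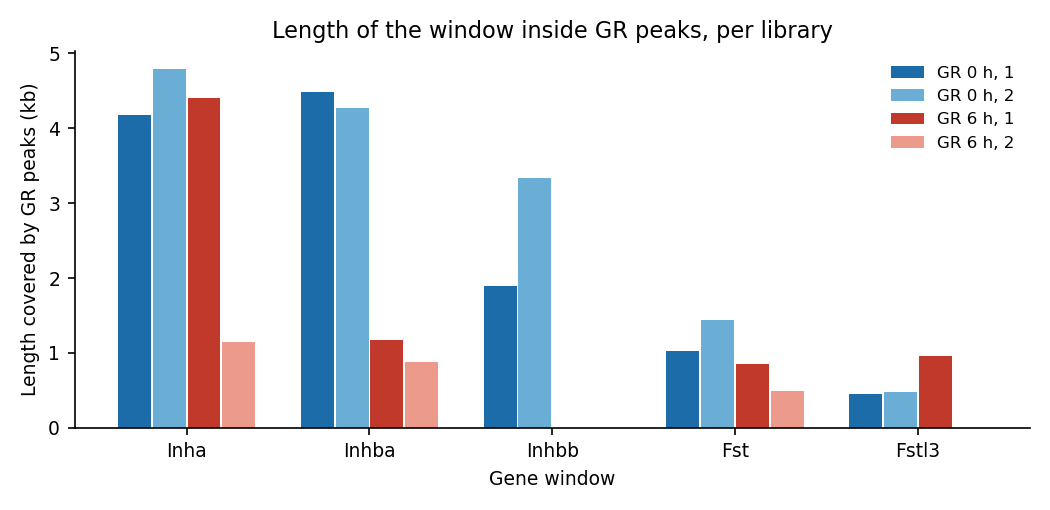
Length in kb inside GR peaks in each gene window, 1 bar per library (blue 0 h, red 6 h, no error bars since each bar is 1 library). Both blue bars are above both red bars in Inhba, Inhbb and Fst, genes chosen with these calls known. In Inha the first 6 h library (4407 bp) lies between the 0 h libraries (4172 and 4795 bp). In Fstl3 that library (953 bp) lies above both (449 and 476 bp). The share of all genes with both blue bars above both red bars was not computed.

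Peaks near these genes were mostly weaker than the typical peak of their library. In the first 0 h library 8 of 32 peaks were above the median fold of the list (7.34), and in the second 15 of 36 were (median 7.68). At 6 h 4 of 18 peaks in the first library (median 7.89) and 1 of 6 in the second (median 6.89) were. The median fold over the windows was 6.17 and 6.39 at 0 h and 6.46 and 5.60 at 6 h. The genes differed at 0 h. In both 0 h libraries the median was above that of the list in Inha (7.45 and 9.11) and Fst (8.13 and 7.86). It was below in Inhba (6.13 and 6.10), Inhbb (5.79 and 6.07) and Fstl3 (5.09 and 5.66). In the 16 loci only at 0 h, the first 0 h library had 16 peaks with a median fold of 6.44. The second had 17 peaks with a median of 7.76. Over all 771 loci of that class, the medians were 6.77 (775 peaks) and 7.30 (774 peaks). In the loci that both 0 h libraries called, 25 in all, the strongest summits were 2 to 339 bp apart, with a median of 45 bp. The second 0 h library had the higher fold in 13 of the 25.

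**Figure D4:**
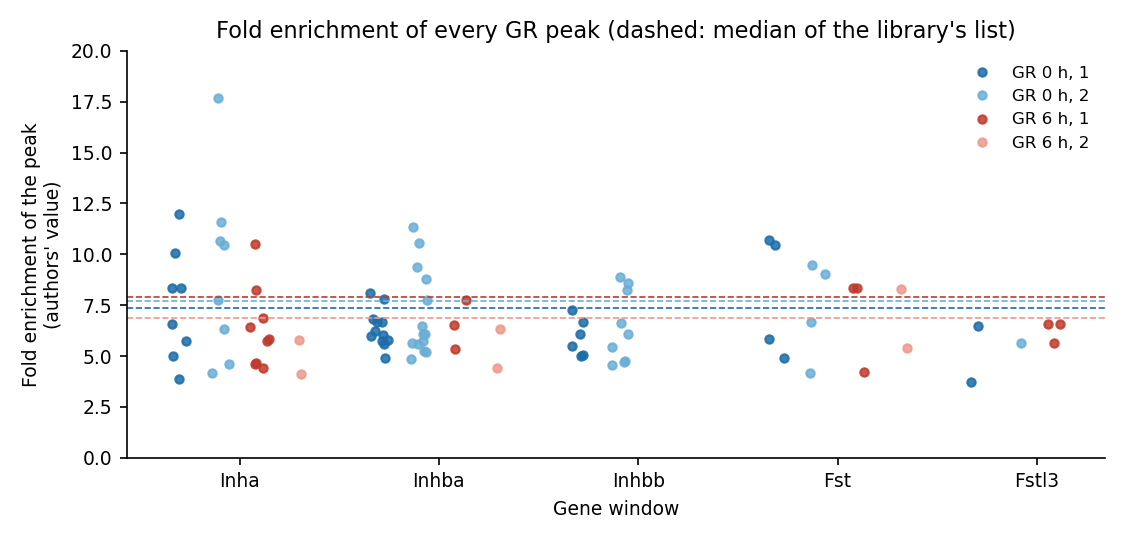
Fold enrichment, as the authors gave it, of every GR peak in the 5 windows, by gene and library (blue 0 h, red 6 h), with each library's median over its whole list as a dashed line of the same colour. Most points lie below the dashed line of their library, and the highest, 17.7, is the peak of the second 0 h library at the start of Inha.

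H3K27ac at 0 h formed very wide peaks over the 3 subunit genes, which covered all of Inha and Inhbb and a part of Inhba. The wide Inhba peak began 6102 bp from the lower-numbered end of the gene span. The peak over Inhba (chr13:16010358-16027184) was 16827 bp wide and ranked 5 by width among 37453 H3K27ac peaks, whose median width was 637 bp. The peak over Inhbb (chr1:119412160-119425222) was 13063 bp wide and ranked 12, and the peak over Inha (chr1:75501003-75513725) was 12723 bp wide and ranked 15. A second wide peak near Inhbb (chr1:119385174-119395264), 10091 bp, ranked 32. At Fst the peak over the higher-numbered end of the gene (chr13:114454953-114460775) was 5823 bp wide and ranked 205. The widest in the Fstl3 window, away from the gene, was 1779 bp.

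Nearly all GR loci of the windows overlapped an H3K27ac peak of 0 h, in part these wide peaks and in part narrower ones. Of the 45 loci, many of them close neighbours near genes chosen by their peaks, 43 (95.6%) overlapped H3K27ac, against 74.4% of all loci. All 16 loci only at 0 h did, as did 91.3% of the 771 loci of that class in the genome. The share was high for 0 h peaks at large, with 94.6% of the peaks in each 0 h list in H3K27ac, against 77.9% and 70.7% in the 6 h lists. The 2 exceptions were the Inhba locus only at 6 h and the Polrmt locus in the Fstl3 window. The wide Inhba peak alone held 11 loci, 7 of them only at 0 h. That over Inhbb held 5 (2 only at 0 h), that over Inha 4 (1 only at 0 h) and that at Fst 4 (1 only at 0 h). Over the genome, 34 H3K27ac peaks were 10 kb or wider. They held a median of 4 GR loci, and 15 of them held a locus only at 0 h, the Inhba peak the most. A locus only at 6 h lay in 7 of the 34. Some H3K27ac peaks of the windows were close neighbours, and the share over all H3K27ac peaks was not computed. Neighbouring peaks were within 500 bp of each other at 9 places in the Inhbb window, 4 in Inhba, 3 in Fstl3, 2 in Inha and 2 in Fst.

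The other genes of the pathway were read from a list of 15 receptors, SMADs, related ligands and processing enzymes. Of these, 4 had a locus only at 0 h in their window, 6 a locus only at 6 h and 13 a locus in all 4 libraries. Over all protein-coding genes the shares were 6.78%, 16.5% and 45.5%. Among the 5 inhibin, activin and follistatin genes, 4, 1 and 2 had such loci. Acvr2a, a type II activin receptor, had a locus only at 0 h at its start (chr2:48814110-48814542) with folds of 12.7 and 11.0. The loci only at 0 h in the window of Acvr1b, a type I activin receptor, were nearer to Grasp and Nr4a1.

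Tgfbr3, the gene of betaglycan, the co-receptor of inhibin, had loci of both kinds. A locus only at 0 h overlapped its higher-numbered end (chr5:107289312-107289683, folds 6.19 and 4.58) and another lay inside it (chr5:107192515-107192777, folds 6.42 and 9.24). Of its 3 loci only at 6 h, the one inside the gene (chr5:107219458-107219798) had folds of 8.47 and 9.45. Smad3, which carries the activin signal, had 6 loci only at 6 h in its window and none only at 0 h, and 4 of them lay inside the gene. The strongest of these (chr9:63743810-63744221) had folds of 24.0 and 18.8 and lay outside H3K27ac of 0 h. Fstl1, a follistatin-like gene, had a locus only at 6 h inside it (folds 9.29 and 8.91), and Pcsk6, a protease that cuts precursors of this family, had 1 as well (9.65 and 10.2). The locus only at 6 h in the window of Furin, another such protease, was nearer to Fes. Smad7, an inhibitory SMAD, had 1 only at 6 h (folds 7.81 and 5.24), while its locus only at 0 h was nearer to Ctif. Acvr2b, Acvr1c, Bambi, Smad2, Smad4, Inhbc and Inhbe had neither kind.

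Genes with the most similar pattern were found from the numbers of loci only at 0 h, only at 6 h, in all 4 libraries and in other sets of libraries, over the 4 GR libraries, as the sum of absolute differences. For Inhba the smallest sum was 8, shared by 4 genes, among them Med23, Foxr1 and Fam214a, each with 1 locus only at 0 h. For Inhbb it was 3, for Gja1, the gene of the gap junction protein connexin 43, which had 3 loci only at 0 h and 2 in all 4 libraries. Tle5 and Cbx2 followed with a sum of 4. For Inha it was 1, shared by 12 genes, of which Dctpp1, Mylpf and Serinc4 were nearest in gene length. Fst and Fstl3 had patterns that 43 and 157 other genes matched exactly, among them Tmem126a, Hmgb1 and Tmem126b for Fst and Abhd15, Lypd5 and Unc119 for Fstl3.

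The 50 kb limit of the windows mattered most at Fstl3, where flanks of 100 kb raised the number of loci from 4 to 12 and that of loci in all 4 libraries from 0 to 3. At 100 kb Fst gained 1 locus only at 6 h. The farthest Inhbb locus inside was 35297 bp away, and another locus only at 0 h lay just outside, at 50363 bp, which made 5 in place of 4 at 100 kb. For Inha the farthest locus inside was 48925 bp from the gene, overlapping Slc4a3, and the next outside was 70832 bp away. For Inhba the farthest inside was at 1375 bp and the next outside at 250271 bp. For Fst the values were 1279 and 64052 bp, and for Fstl3 30730 and 58122 bp.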

How the data were processed

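ChIP-seq peak lists of 5 libraries were used (GR at 0 h and at 6 h, 2 each, and H3K27ac at 0 h). Per the submitters' processing notes, reads were aligned with Bowtie2 2.4.5 to mm10 and peaks called with MACS2. The sources used here give neither its version nor the control or read depth. The deposited GR lists, 1 per library, give each peak's score (10 times the −log10 p-value, whole), fold enrichment (a ratio), −log10 p-value and q-value and summit. The smallest −log10 p-value was 9.00 to 9.10. The deposited H3K27ac list holds positions only (other). Unplaced contigs were left out (chromosomes 1 to 19 with X and Y stayed), and peaks overlapping by 1 bp or more were merged. A locus took the highest fold of each library's peaks in it. Genes and promoters came from RefSeq tables of GRCm38.p6 (32851 promoter entries). All 5 genes matched the gene table and 4 the promoter table. The text names the 5 genes, each locus nearest to them that carries a result, pathway genes with a locus at 1 time only, and the 3 most similar genes each. The members and lists were chosen with earlier results of these data known, so nothing was tested. Python 3.11.15, pandas 2.3.3 and scipy 1.17.1 were used, and the merging and counting steps were tested on simulated data. Alternatives were merging within 500 bp, flanks of 10 and 100 kb, nearest genes only, stronger peaks, equal lists and leaving out each library.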

Additional observations from a re-analysis of the deposited data

How the results depend on the processing

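The counts over the 5 windows (16 loci only at 0 h, 1 only at 6 h, 4 in all 4 libraries) were recomputed under 10 alternatives. With the stronger 50% of each list they were 4, 0 and 0, and 100% of the 16 loci left overlapped H3K27ac. Of the 4 only at 0 h, 2 belonged to that class with the whole lists. With the same number of peaks from each list (9726) they were 17, 0 and 2, and with flanks of 100 kb 17, 2 and 9. Leaving out 1 library gave 16 to 25 loci only at 0 h, 1 to 4 only at 6 h and 4 to 9 in all the libraries left, with 95 to 97.6% in H3K27ac. The 25 and a count of 2 only at 6 h came without the first 0 h library, and the 4 only at 6 h and the 9 came without the second 6 h library. A class with fewer libraries has fewer conditions, so its count can only stay or rise, apart from loci that the library had joined. The other alternatives kept the counts within 1.5 times: merging within 500 bp gave 13, 1 and 4, and flanks of 10 kb or nearest genes only gave 14, 1 and 3. H3K27ac overlap was 95.6% with summits in place of 1 bp. Of 150 values for single genes and classes, 123 stayed within 1.5 times. No paired analysis was possible because the results come from no test.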
